A study of Mus musculus with 22 samples.

Results

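The interferon-induced transmembrane (IFITM) family was followed through RNA, histone mark, antibody-bound RNA and single-cell measurements of mouse fetal liver lacking Mettl3, the catalytic subunit of the methyltransferase that places N6-methyladenosine on RNA. Its 4 members here, Ifitm1, Ifitm2, Ifitm3 and Ifitm6, were taken by gene name, and they are 4 of the 52459 genes in the bulk RNA table; all 4 are present in each of the 4 count tables. The KO samples came from Vav-Cre Mettl3fl/fl embryos and the WT samples from Mettl3fl/fl embryos without Vav-Cre, all at E14.5, so both groups carry the floxed Mettl3 alleles and only the KO group carries the Cre. Vav-Cre acts in blood cells and their progenitors, which means that liver parenchymal and stromal cells of the KO embryos are outside the intended deletion. Sorted Lin-Sca-1+c-Kit+ (LSK) cells, the fraction that holds blood stem and multipotent progenitor cells, were used for bulk RNA sequencing (3 KO and 3 WT libraries), for CUT&RUN of H3K4me3, a histone mark of active gene starts (2 KO and 2 WT), and for single-cell RNA sequencing (2 KO and 2 WT). Whole fetal liver was divided so that a portion gave RNA bound by J2, an antibody that recognises double-stranded RNA, and another gave unselected INPUT RNA (2 KO and 2 WT livers for each).

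IFITM proteins are small membrane proteins with a CD225 domain that stiffen cellular membranes and hinder the fusion of enveloped viruses with the cell. Interferons bind their receptors and switch on genes that carry the interferon-stimulated response element (ISRE) near their starts, several IFITM genes among them. Ifitm3 sits mainly in late endosomes and restricts influenza A virus, Ifitm2 is also largely endosomal, Ifitm1 is found more at the cell surface, and Ifitm6 is a member of the mouse family. Stem cells are known to express IFITM genes without added interferon.

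Parts of the start regions of the 3 members with the higher H3K4me3 windows are shown. The letters of the response element were found in Ifitm2 and Ifitm3. In Ifitm1 they were not found in the 300 bases around its RefSeq start. Sequences are RefSeq's, on build GRCm38.p6, 5′ to 3′ along the transcribed strand, and capitals mark a match to the ISRE letters, which are GAAA, any 2 bases and GAAA again. The stretch of Ifitm3 upstream of its deposited start (chr7:141010771-141010994, minus strand) holds no match, whereas the corresponding stretch of Ifitm2 (chr7:140955988-140956211, minus strand) holds 1, which begins 46 bases before the RefSeq start. In Ifitm3 the matches lie instead inside the first 30 transcribed bases (chr7:141010715-141010744, minus strand), at bases 3 and 20 counted from the RefSeq start, and the first 30 bases of Ifitm1 (chr7:140968076-140968105, plus strand) hold none.
Ifitm3 upstream: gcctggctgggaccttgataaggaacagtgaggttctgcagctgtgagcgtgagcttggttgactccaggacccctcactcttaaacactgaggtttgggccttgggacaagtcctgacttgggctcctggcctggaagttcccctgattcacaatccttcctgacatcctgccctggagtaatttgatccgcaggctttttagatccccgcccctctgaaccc
Ifitm2 upstream: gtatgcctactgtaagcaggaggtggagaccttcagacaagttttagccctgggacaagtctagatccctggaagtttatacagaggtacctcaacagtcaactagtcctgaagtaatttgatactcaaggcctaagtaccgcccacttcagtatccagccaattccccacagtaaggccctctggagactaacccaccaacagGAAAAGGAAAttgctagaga
Ifitm3 first transcribed bases: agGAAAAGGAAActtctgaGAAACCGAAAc
Ifitm1 first transcribed bases: ttaactccgcagcccctaaaaagcacacca

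Both strands of the 300 bases around each RefSeq start were searched, and the ISRE letters occurred in 1131 of 32851 promoters (3.44%). Of the 28 genes of a list of antiviral effectors that had a promoter sequence, 14 held the letters (50.0%), as did 3 of 14 genes of interferon signalling (21.4%). The letters TTC, any 3 bases and GAA of the GAS element, found near genes that respond to interferon gamma, read the same on both strands and occurred in 8.30% of promoters. In Ifitm3 a GAS match begins at base 14 after the start and overlaps the second ISRE match. Ifitm6 had a GAS match that begins 10 bases before its RefSeq start, ccatatgaacTTCCTTGAAacaagagctt with the match in capitals, and no ISRE match. These matches describe letters in a fixed window, and binding was not measured.

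All 4 genes lie on chromosome 7. The deposited annotation (GRCm38) starts Ifitm2 (ENSMUSG00000060591) at 140955987 on the minus strand, Ifitm1 (ENSMUSG00000025491) at 140968028 on the plus strand, Ifitm3 (ENSMUSG00000025492) at 141010770 on the minus strand and Ifitm6 (ENSMUSG00000059108) at 141017558 on the minus strand. The RefSeq start lies 26 bases inside the deposited one for Ifitm2 and for Ifitm3, 48 for Ifitm1 and 666 for Ifitm6. Gene lengths are not in the tables, so RNA levels are compared between samples for a gene and not between genes.

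Libraries held 20088100 to 40641081 counts in bulk RNA, 11508749 to 14451593 in H3K4me3, 3100910 to 4120864 in INPUT, 3873688 to 5251496 in J2 and 7264127 to 11638238 in the single-cell sums. Values are in CPM, the count of a gene over the size of its library, with library sizes scaled by TMM, except within single-cell classes, where the summed counts of the class in a library are the size. Mettl3 itself stood at 4.13, 6.31 and 5.52 CPM in KO bulk libraries, against 43.0, 43.0 and 33.2 CPM in WT. In whole liver INPUT it was at 6.70 and 26.9 CPM in KO and 29.4 and 24.9 CPM in WT (log2 fold change -0.70, adjusted p = 0.557 by edgeR), and the library labelled KO 2 did not stand below WT. In the single-cell sums Mettl3 was higher in the libraries labelled KO, at 64.3 and 52.2 CPM against 36.3 and 33.3 CPM in WT. The log2 fold change was 0.74 (SE 0.17, adjusted p = 0.251, edgeR). Which exons are deleted is not given in the sources used here, and the cause of the higher counts was not tested. Both single-cell KO libraries carried Xist and no Y-linked transcripts, and both single-cell WT libraries the reverse, so the effects of sex and of genotype cannot be told apart in that assay. In bulk RNA, KO 1 held no Y-linked counts and WT 3 only 3 Xist counts, while the other 4 libraries held both kinds. All 12 genes of a stem and multipotent marker list were detected in every bulk library, with summed levels of 599 to 711 CPM in KO and 889 to 1233 CPM in WT.

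Ifitm3 and Ifitm1 RNA rose in KO LSK cells, Ifitm3 by more, while Ifitm2 and Ifitm6 did not pass the test. Ifitm3 measured 179.7, 246.8 and 232.8 CPM in the KO libraries, against 62.6, 71.8 and 77.3 CPM in the WT libraries. Every KO value was above every WT value by a margin wider than the spread within either group. The fold change was 3.12 (log2 1.64, SE 0.13, adjusted p = 3.5e-05, edgeR quasi-likelihood test with Benjamini-Hochberg adjustment, with calls at an adjusted p under 0.05), the 115th highest of 14405 genes tested. The means were 219.8 ± 35.4 CPM in KO and 70.5 ± 7.42 CPM in WT (SD, n = 3 each).

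Ifitm1 stood at 94.5, 124.9 and 122.0 CPM in KO and at 44.3, 60.9 and 71.1 CPM in WT, again without overlap. Its fold change was 1.94 (log2 0.96, SE 0.17, adjusted p = 0.0018, edgeR), with means of 113.8 ± 16.8 CPM in KO and 58.8 ± 13.5 CPM in WT (SD, n = 3 each). Ifitm2 gave 51.1, 61.9 and 57.0 CPM in KO and 37.7, 45.3 and 55.8 CPM in WT, and the groups overlapped because WT 3 exceeded KO 1. Its log2 fold change was 0.29 (SE 0.14, adjusted p = 0.106, edgeR). With the replicate number as a block its adjusted p was 0.018, and without WT 3 it was 0.0090 at a log2 fold change of 0.48. Ifitm6 was the rarest in counts, with 171, 124 and 142 counts (4.31, 4.63 and 4.43 CPM) in KO and 127, 139 and 72 counts (3.99, 3.74 and 3.56 CPM) in WT. The groups did not overlap, but the log2 fold change of 0.24 (SE 0.14, adjusted p = 0.204, edgeR) did not pass the test.

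The 2 called members are read against a background in which 21.6% of all 14405 genes tested were called higher in KO and 22.6% lower (44.2% in either direction). The median log2 fold change over all genes was -0.02.

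**Figure D1:**
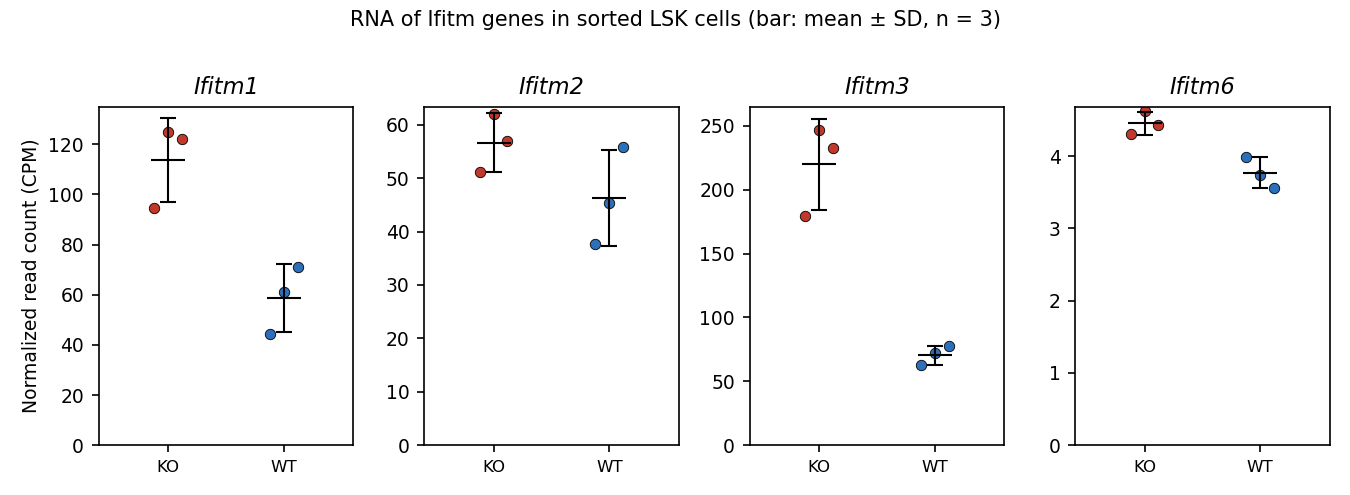
Normalised level (CPM) of each member in the 3 KO and 3 WT bulk LSK libraries, with points for libraries and bars for the group mean ± SD. Ifitm3 and Ifitm1 separate fully by genotype, Ifitm2 overlaps between 51.1 and 55.8 CPM, and Ifitm6 separates narrowly between 3.99 and 4.31 CPM.

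The unequal change of the members was also visible within each library, where scaling between libraries plays no part. There were 3.52, 3.98 and 4.09 Ifitm3 counts for each Ifitm2 count in KO, against 1.66, 1.58 and 1.39 in WT, a ratio of ratios of 2.51. The count of Ifitm1 for each Ifitm2 count was 1.85, 2.02 and 2.14 in KO and 1.17, 1.34 and 1.27 in WT, a ratio of ratios of 1.58. Ifitm3 also gained on Ifitm1, with 1.90, 1.98 and 1.91 counts for each Ifitm1 count in KO and 1.41, 1.18 and 1.09 in WT. For each of these 3 ratios the two-sided exact permutation test gave p = 0.1, the smallest that 3 against 3 libraries allow, and 0.4 after adjustment over the 12 such ratios computed in the 3 LSK tables. The ratio of Ifitm6 to Ifitm2 overlapped between the genotypes.

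A bulk sample cannot tell a change in RNA for each cell from a change in which cells it holds. Of 9 granulocyte progenitor genes, 6 were called higher in KO, beside 21.6% higher and 22.6% lower of all genes. Their summed level was 3794 to 3862 CPM in KO and 1568 to 1717 CPM in WT, and none was at 0. Neutrophil genes summed to 81.1 to 185 CPM in KO and 29.6 to 90.6 CPM in WT. All 12 lymphoid genes tested were called lower in KO, with sums of 730 to 736 CPM in KO and 1341 to 1543 CPM in WT. Dendritic genes, 9 of 9 tested called lower, summed to 18.2 to 19.8 CPM in KO and 64.0 to 159 CPM in WT. Of 12 erythroid genes, 6 were called lower and none higher, with sums of 657 to 823 CPM in KO and 1089 to 1337 CPM in WT, and none was at 0. Their part in the bulk values of the IFITM genes was not tested, and the levels within single-cell classes are given further on.

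Genes that share the interferon pathway with the IFITM family moved mostly upward in the same bulk libraries. Of 36 antiviral effectors tested, 32 rose and 1 fell, beside 21.6% higher and 22.6% lower of all genes. Their median log2 fold change was 1.54, beside -0.02 for all genes. Isg15, a ubiquitin-like protein conjugated to targets after interferon, measured 31.6, 53.8 and 50.7 CPM in KO and 4.34, 3.88 and 4.21 CPM in WT (log2 3.45, SE 0.21, adjusted p = 1.6e-05). Ifit1, which binds viral RNA lacking proper cap methylation, had a log2 fold change of 3.68 (SE 0.25), Ifit3b one of 3.67 (SE 0.55) and Oas1g, of the oligoadenylate synthetase family, one of 3.604 (SE 0.30). The gene that fell was Samhd1, a deoxynucleotide triphosphohydrolase, at -0.29 (SE 0.06, adjusted p = 0.0046).

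Of 16 interferon signalling genes, 8 rose and 4 fell, beside 21.6% higher and 22.6% lower of all genes. Their median log2 fold change was 0.34. Usp18, which removes Isg15 and damps receptor signalling, measured 23.2, 37.4 and 33.6 CPM in KO and 5.00, 3.66 and 3.51 CPM in WT (log2 2.94, SE 0.21). Irf7, a transcription factor that amplifies interferon production, had a log2 fold change of 1.91 (SE 0.17), the feedback inhibitor Socs1 one of 0.93 (SE 0.23) and the interferon gamma receptor chain Ifngr1 one of 0.85 (SE 0.07). Irf2, a factor that competes with Irf1 at its sites, fell by 0.78 on the log2 scale (SE 0.08), and the receptor kinases Jak2 and Tyk2 fell by 0.40 (SE 0.11) and by 0.27 (SE 0.09). All of these pass an adjusted p of 0.05 by edgeR.

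Few structural relatives of the family had enough RNA to be compared. Of 11 listed names of genes with a CD225 domain (Trarg1 and Tusc5 name the same gene), 10 were in the bulk table. Of these, 4 had enough counts to be tested. None was called higher and 3 were called lower, beside 21.6% higher and 22.6% lower of all genes. These were Prrt1, which associates with AMPA-type glutamate receptors (log2 -2.23, SE 0.39), Tmem91 (-1.65, SE 0.22) and Syndig1l (-1.26, SE 0.45). Prrt1 and Syndig1l were rare. Prrt1 had 7, 3 and 5 counts in KO and 27, 29 and 10 in WT, and Syndig1l had 4, 8 and 5 in KO and 13, 16 and 9 in WT. The fourth gene tested, Ifitm7, stood at -0.91 (SE 0.36, adjusted p = 0.070, edgeR). Ifitm5, a bone-forming cell gene beside Ifitm2 on the chromosome, had 17 counts over all 6 bulk libraries and was not tested.

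Among 8 genes whose proteins modify or assist IFITM proteins, 1 rose and 3 fell, beside 44.2% of all genes tested in bulk RNA that were called in either direction. Zmpste24, a membrane protease required for the antiviral action of IFITM proteins, measured 123, 126 and 127 CPM in KO and 84.9, 83.2 and 83.4 CPM in WT (log2 0.58, SE 0.06, adjusted p = 0.00012). Cd81, a tetraspanin found with Ifitm1, fell by 0.58 on the log2 scale (SE 0.10), Fyn, a kinase that phosphorylates Ifitm3, by 0.47 (SE 0.07), and Nedd4, a ubiquitin ligase that marks Ifitm3 for degradation, by 0.28 (SE 0.07). The palmitoyltransferase Zdhhc20 (0.10), the methyltransferase Setd7 (-0.13), Vapa (0.13) and Vcp (0.08) were not called.

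H3K4me3 was counted in windows of 3 kb at gene starts, so its values can be compared between genes as well as between samples. Ifitm3 was called higher in KO, with 69.3 and 59.5 CPM in KO and 37.9 and 33.9 CPM in WT. The groups were well apart, at means of 64.4 ± 6.97 CPM in KO and 35.9 ± 2.88 CPM in WT (SD, n = 2 each). Its log2 fold change was 0.84 (SE 0.21, adjusted p = 0.0029, edgeR), beside a median of -0.15 over all 51039 genes tested. Of those genes, 3.22% were called higher and 4.66% lower (7.88% in either direction). The median window of all genes held only 2.97 CPM. On windows of at least 4 log2 CPM the log2 fold change of Ifitm3 was 0.53, and with library size alone it was 0.59, both called. Listed modifiers and partners of IFITM proteins were all above 0 in the main fit, from 0.12 for Fyn to 0.47 for Zdhhc20, and none was called. The call on Ifitm3 was lost without the library KO 1, when the log2 fold change was 0.68 and the adjusted p 0.064.

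Ifitm2 measured 70.3 and 63.2 CPM in KO and 49.3 and 42.3 CPM in WT, without overlap (log2 0.54, SE 0.21, adjusted p = 0.086, edgeR). Its call depended on the processing: Ifitm2 was called higher with library size alone (adjusted p = 0.031), with all distinct windows (0.010) and without WT 1 (0.0499), all by edgeR. Ifitm1 stood at 19.3 and 18.5 CPM in KO and 18.2 and 13.7 CPM in WT, a gap smaller than the spread of the WT pair (log2 0.24, SE 0.16, adjusted p = 0.293), and its sign turned to -0.06 when only well-marked windows entered the test. Ifitm6 stood at 12.6 and 12.9 CPM in KO and 11.7 and 9.17 CPM in WT (log2 0.28, SE 0.17, adjusted p = 0.245). In both genotypes the order of mean levels was Ifitm2, Ifitm3, Ifitm1 and Ifitm6. In KO the values of Ifitm2 and Ifitm3 overlapped, and in WT every Ifitm2 value was above every Ifitm3 value. Averaged over the 4 libraries, the window of Ifitm2 was stronger than that of 87.6% of genes, Ifitm3 of 84.7%, Ifitm1 of 70.5% and Ifitm6 of 66.7%.

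Within each library, Ifitm3 had 0.986 and 0.941 H3K4me3 counts for each Ifitm2 count in KO and 0.769 and 0.801 in WT. The ratio of Ifitm1 to Ifitm2 went the other way, at 0.274 and 0.293 in KO and 0.370 and 0.323 in WT. With 2 against 2 libraries the two-sided exact permutation test cannot go below p = 0.333, and both ratios gave that value (0.4 after adjustment over the 12 ratios). Ifitm1 and Ifitm6 have 3 deposited windows each, and within a gene these held nearly the same reads, at 17.3 to 19.3 CPM in KO and 12.8 to 18.2 CPM in WT for Ifitm1.

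**Figure D2:**
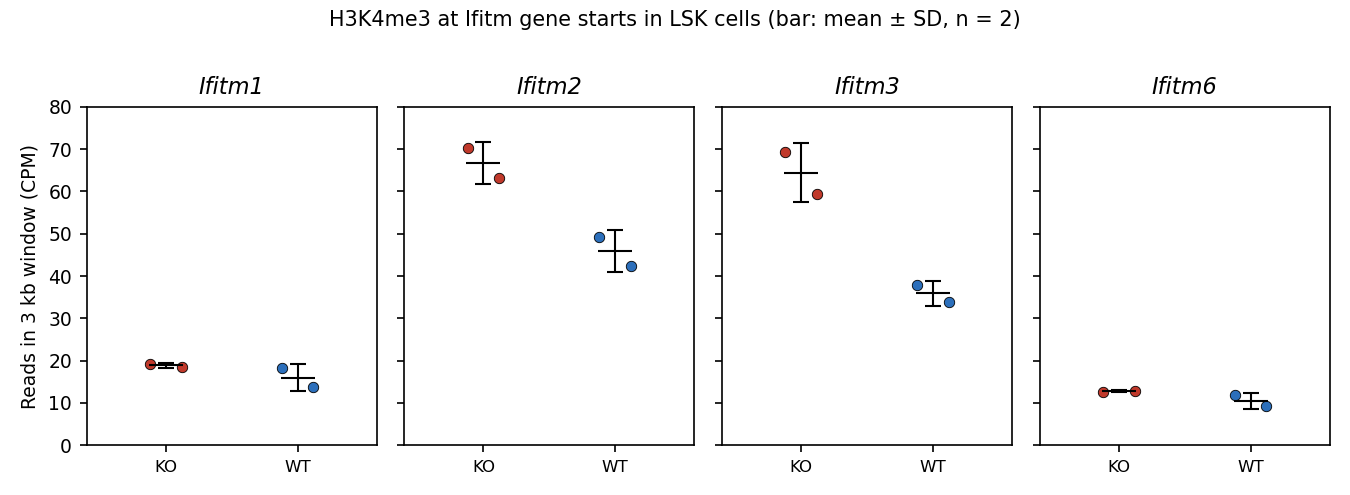
H3K4me3 level (CPM in the window at each gene start) in 2 KO and 2 WT LSK libraries, with points for libraries and bars for the group mean ± SD. Ifitm3 is at 59.5 CPM or more in KO and at 37.9 CPM or less in WT, while the windows of Ifitm1 and Ifitm6 sit close together.

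Of 20 other genes that start within 100 kb of a member, 9 had enough counts to be tested in bulk RNA. None of the 9 was called higher and 2 were called lower, beside 21.6% higher and 22.6% lower of all genes. The 2 were Pgghg (log2 -0.42, adjusted p = 0.011) and Sigirr, a dampener of interleukin-1 and Toll-like receptor signalling (-0.42, adjusted p = 0.0023). In H3K4me3 all 20 were tested and 3 were called higher, beside 3.22% of all genes: BC024386 (0.73, adjusted p = 0.0015), B4galnt4 (0.60, adjusted p = 0.015) and Pkp3 (0.61, adjusted p = 0.0092), all by edgeR. The annotated gene Gm45717 starts 50 bases from Ifitm2 on the same strand, so their H3K4me3 windows share nearly all reads, but it had 0 bulk RNA counts. In H3K4me3, 18 of the 37 antiviral effectors were called higher and 1 lower (median log2 0.58), beside 3.22% higher and 4.66% lower of all genes. Of 16 signalling genes, 3 were called higher and none lower. Their median of 0.37 lay within the range of the modifiers and partners of IFITM proteins, 0.12 to 0.47, none of which was called. Neutrophil genes, 6 of 8 called higher, summed to 126 and 148 CPM of H3K4me3 in KO and 67.5 and 69.4 CPM in WT, and their part in the Ifitm3 value was not tested.

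In whole fetal liver, Ifitm3 was near the detection limit in WT and abundant in KO. The INPUT libraries held 685 and 466 Ifitm3 counts in KO and 2 and 6 in WT, which is 170 and 143 CPM in KO and 0.772 and 2.45 CPM in WT. Both KO livers were far above both WT livers. The pooled counts gave a ratio of 99.2, with an exact 95% interval of 50.2 to 230 that covers counting error only. The fitted log2 fold change was 6.59 (SE 0.66, adjusted p = 0.00093, edgeR), and it stood between 5.98 and 7.61 and stayed called under each of the 14 alternatives tried. In this comparison 0.614% of 14657 genes tested were called higher and 0.566% lower (1.18% in all). The KO 1 and WT 2 livers carried Y-linked transcripts and the KO 2 and WT 1 livers Xist, so the difference was present between livers of each sex.

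The other members showed no such contrast in whole liver. Ifitm2 had 257 and 103 counts (63.8 and 31.5 CPM) in KO and 65 and 76 counts (25.1 and 31.1 CPM) in WT, with KO 2 next to WT 2 (log2 0.76, SE 0.66, adjusted p = 0.588, edgeR). Ifitm1 had 3 and 11 counts in KO and 5 and 6 counts in WT, too few to be tested, and its pooled ratio was 0.878 with an exact 95% interval of 0.370 to 2.14. Ifitm6 had 38 and 0 counts in KO and 0 and 18 counts in WT, so each genotype had 1 liver with none (log2 0.38, SE 1.70, adjusted p = 0.945, edgeR). A count of 0 in those INPUT libraries allows up to 0.917 CPM in KO 2 and 1.16 CPM in WT 1.

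Antiviral effectors moved with Ifitm3 in whole liver, where 10 of 32 tested were called higher and none lower (median log2 3.09, beside 0.02 for all genes). Of all genes, 0.614% were called higher. Of 15 signalling genes tested, 2 were called higher, Irf7 and Irf9. Hepatocyte genes, all 10 detected in every INPUT library and 3 called higher, summed to 20847 and 22006 CPM in KO and 10640 and 14344 CPM in WT. Monocyte and macrophage genes, 1 of 12 called higher, summed to 391 and 450 CPM in KO and 178 and 232 CPM in WT, and neutrophil genes, 0 of 7 called, to 354 and 389 CPM in KO and 115 and 181 CPM in WT. Their part in the Ifitm3 value was not tested. Set beside the LSK cells, with the tables normalised separately, KO livers had Ifitm3 at 170 and 143 CPM and KO LSK cells at 179.7 to 246.8 CPM. The WT values were further from each other, 0.772 and 2.45 CPM in livers and 62.6 to 77.3 CPM in LSK cells.

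**Figure D3:**
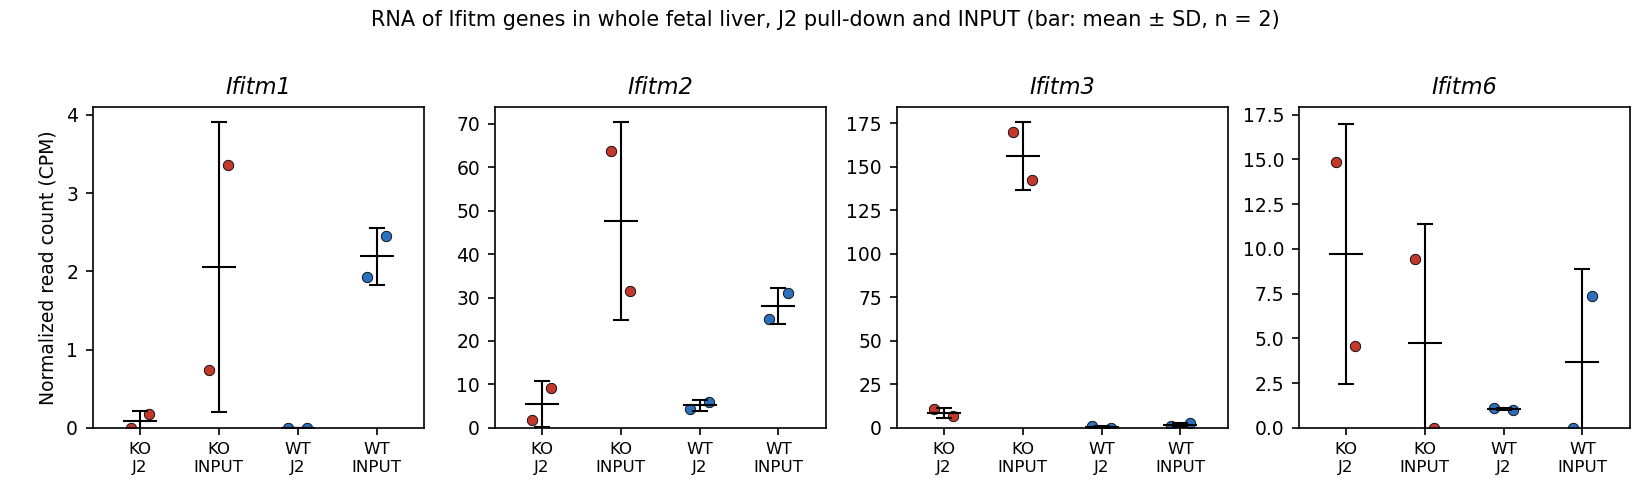
Level (CPM) of each member in J2-bound and INPUT RNA of KO and WT whole livers, 2 libraries a group, with points for libraries and bars for the mean ± SD; vertical scales differ between genes. The Ifitm3 points of the KO INPUT libraries, at 170 and 143 CPM, stand far above the WT INPUT libraries and above J2-bound RNA of both genotypes.

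J2-bound RNA held less Ifitm3 and Ifitm2 than INPUT in KO livers. Ifitm3 had 65 and 37 counts (10.6 and 6.54 CPM) in KO J2 libraries, against 685 and 466 counts (170 and 143 CPM) in KO INPUT. The log2 ratio of J2 to INPUT was -4.18 (SE 0.53, adjusted p = 0.00014, edgeR). This fit does not pair the J2 and INPUT libraries of the same liver. With the liver as a block the log2 ratio was -4.21 (SE 0.53, adjusted p = 1.9e-05, edgeR). Ifitm2 had 11 and 52 counts in KO J2 libraries, against 257 and 103 in KO INPUT (log2 -3.12, SE 0.71, adjusted p = 0.0061), a call that was lost without the library INPUT KO 1 (adjusted p = 0.058). The log2 fold change was -2.32 without J2 KO 1 and -4.67 without J2 KO 2, both still called. Ifitm6 had 91 and 26 counts in KO J2 libraries and 38 and 0 in KO INPUT (log2 1.03, SE 1.66, adjusted p = 0.678). In KO livers 15.1% of all genes were called lower in J2 than in INPUT and 15.3% higher (30.4% in either direction), and all 10 hepatocyte genes were called lower, with a median of -2.90.

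In WT livers Ifitm2 was the only member called, with 19 and 24 counts in J2 and 65 and 76 in INPUT (log2 -2.45, SE 0.71, adjusted p = 0.027, edgeR). That call was lost in 4 of 13 alternatives, among them leaving out INPUT WT 2 (adjusted p = 0.056), J2 WT 1 (0.159) or J2 WT 2 (0.107). Here 10.7% of genes were called lower and 13.2% higher (23.9% in all). Ifitm3 had 4 and 0 counts in WT J2 libraries and 2 and 6 in WT INPUT (log2 -1.71, SE 0.98, adjusted p = 0.234), close to the level that a count of 0 allows. That log2 fold change was -5.69 without J2 WT 1, -0.81 without J2 WT 2 and -0.68 without INPUT WT 2, and it was called in none of them. Ifitm6 had 5 and 4 counts in J2 and 0 and 18 in INPUT of WT livers (log2 -1.76, SE 1.82, adjusted p = 0.523). Ifitm1 had 0 and 1 counts in KO J2 and 0 and 0 counts in WT J2 libraries.

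The change in the J2 to INPUT ratio between genotypes was called for 0 of 14657 genes by edgeR, with 1340 at an unadjusted p under 0.05, and for 68 genes by DESeq2. For Ifitm3 the difference of log2 ratios was -2.47 (SE 1.25, unadjusted p = 0.073, adjusted p = 0.578, edgeR). For Ifitm2 it was -0.67 (SE 0.96, adjusted p = 0.879) and for Ifitm6 2.79 (SE 2.46, adjusted p = 0.763). The J2 libraries held 102 pooled Ifitm3 counts in KO against 4 in WT. That is a depth-scaled ratio of 18.3, with an exact 95% interval of 6.95 to 68.6 for counting error only. The same ratio in INPUT was 99.2. J2 counts are shares of a library, so the amount of Ifitm3 RNA bound by the antibody was not measured.

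Single-cell sequencing placed the Ifitm3 change across the LSK classes. After cells under 500 counts or above 20% mitochondrial counts were left out, 4920 and 3884 KO cells and 2731 and 4143 WT cells remained (15678 of 15707), with median counts of 1478.5 and 2134.5 in KO and 2099 and 1560 in WT. At most 3 cell barcodes were shared by any 2 libraries. Summed over all cells of a library, Ifitm3 measured 725 and 596 CPM in KO and 238 and 300 CPM in WT, with the genotypes clearly apart. Its log2 fold change was 1.30 (SE 0.19, unadjusted p = 0.00093), but with 2 libraries a group the adjusted p over 13374 genes was 0.221 by edgeR, and 5.6e-11 by DESeq2. In this comparison 0.00748% of genes were called higher, which is 1 gene, with 1932 at an unadjusted p under 0.05, and DESeq2 called 827 genes.

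Ifitm1 summed to 615 and 534 CPM in KO and 303 and 469 CPM in WT (log2 0.57, SE 0.24, adjusted p = 0.375, edgeR), and Ifitm2 to 116 and 83.9 CPM in KO and 80.2 and 72.8 CPM in WT (log2 0.38, SE 0.20, adjusted p = 0.446). Ifitm6 stood the other way round, with 24.5 and 15.1 CPM in KO and 29.3 and 28.6 CPM in WT (log2 -0.56, SE 0.26, adjusted p = 0.411). Its value was 0.29 (SE 0.42, adjusted p = 0.824) when cells of clusters 3, 4 and 7 were left out, a choice made after seeing the data. Of 35 antiviral effectors tested in the sums, 0 were called by edgeR, at a median log2 fold change of 1.46.

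Clustering without the genes called in bulk gave 10 clusters, of which 7 classes held at least 50 cells in every library. Clusters 2 and 5 met the marker rule for stem and multipotent-like, cluster 6 was erythroid-like with haemoglobin genes in the lead, and cluster 8 lymphoid-like with surrogate light chain genes. Cluster 2 passed on 3 of 12 stem and multipotent markers and cluster 5 on 6 of 12, each with 1 of them among its 10 leading genes. Cluster 5 was led by Ckap5, Tpx2, Smc1a and Top2a, genes of the mitotic spindle and chromosome structure. At the coarser Leiden resolution of 0.5 no cluster earned the stem and multipotent name, and a cluster led by Pf4, Ckap5, Angpt1 and Tpx2 was named megakaryocyte-like. Clusters 0, 1, 3, 4 and 7 did not earn a name. Cluster 7 was led by S100a8 and S100a9 and also by Elane, and cluster 3 by the heat shock genes Hspa1a and Hspa1b. Cluster 3 held 1412 and 218 cells of the KO libraries and 104 and 87 of the WT libraries. Cluster 4, led by the early response genes Egr1, Klf2 and Fos, held 320 and 7 KO cells and 1135 and 11 WT cells, so mostly library 1 of each genotype, and was not compared between genotypes.

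Ifitm3 was higher in both KO libraries than in both WT libraries in 7 of 7 classes, which share the same libraries. The share of all genes that stand in this order was not counted. Erythroid-like cells had the lowest level, 263 and 182 CPM in KO and 39.7 and 88.6 CPM in WT (log2 1.98, SE 0.29, adjusted p = 0.0024, edgeR on class sums). Stem and multipotent-like cells had 751 and 608 CPM in KO and 225 and 268 CPM in WT (log2 1.40, SE 0.18, adjusted p = 0.0051). Cluster 7 had the highest level in each library, 1130 and 1393 CPM in KO and 397 and 754 CPM in WT (log2 1.07, SE 0.29, adjusted p = 0.155).

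Lymphoid-like cells had 730 and 504 CPM in KO and 106 and 235 CPM in WT (log2 1.81, SE 0.31, adjusted p = 0.060, edgeR). Cluster 3 had 844 and 750 CPM in KO and 177 and 316 CPM in WT (log2 1.70, SE 0.26, adjusted p = 0.0021). Cluster 0 had 747 and 610 CPM in KO and 168 and 289 CPM in WT (log2 1.54, SE 0.23, adjusted p = 0.0090), and cluster 1 had 726 and 559 CPM in KO and 219 and 264 CPM in WT (log2 1.28, SE 0.22, adjusted p = 0.0027). Ifitm3 was thus called in 5 of 7 classes. The share of genes called higher was 0.481% in cluster 0, 0.869% in cluster 1, 0.243% in cluster 3, 0.0719% in cluster 7, 1.62% in erythroid-like, 0.0597% in lymphoid-like and 0.805% in stem and multipotent-like cells. Without KO 1 the call was lost in cluster 0 (adjusted p = 0.098) and in erythroid-like cells (0.211). Leaving out WT 2 gave a log2 fold change of 1.48 in cluster 7. Leaving out any 1 library gave 1.37 to 2.38 in lymphoid-like cells. Such fits leave 1 library in a group, which then has no spread of its own.

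Between erythroid-like cells and cluster 7, each of the other 5 classes overlapped its neighbours in the order of mean levels, in KO and in WT. Whether the fold changes differ between classes was not tested.

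**Figure D4:**
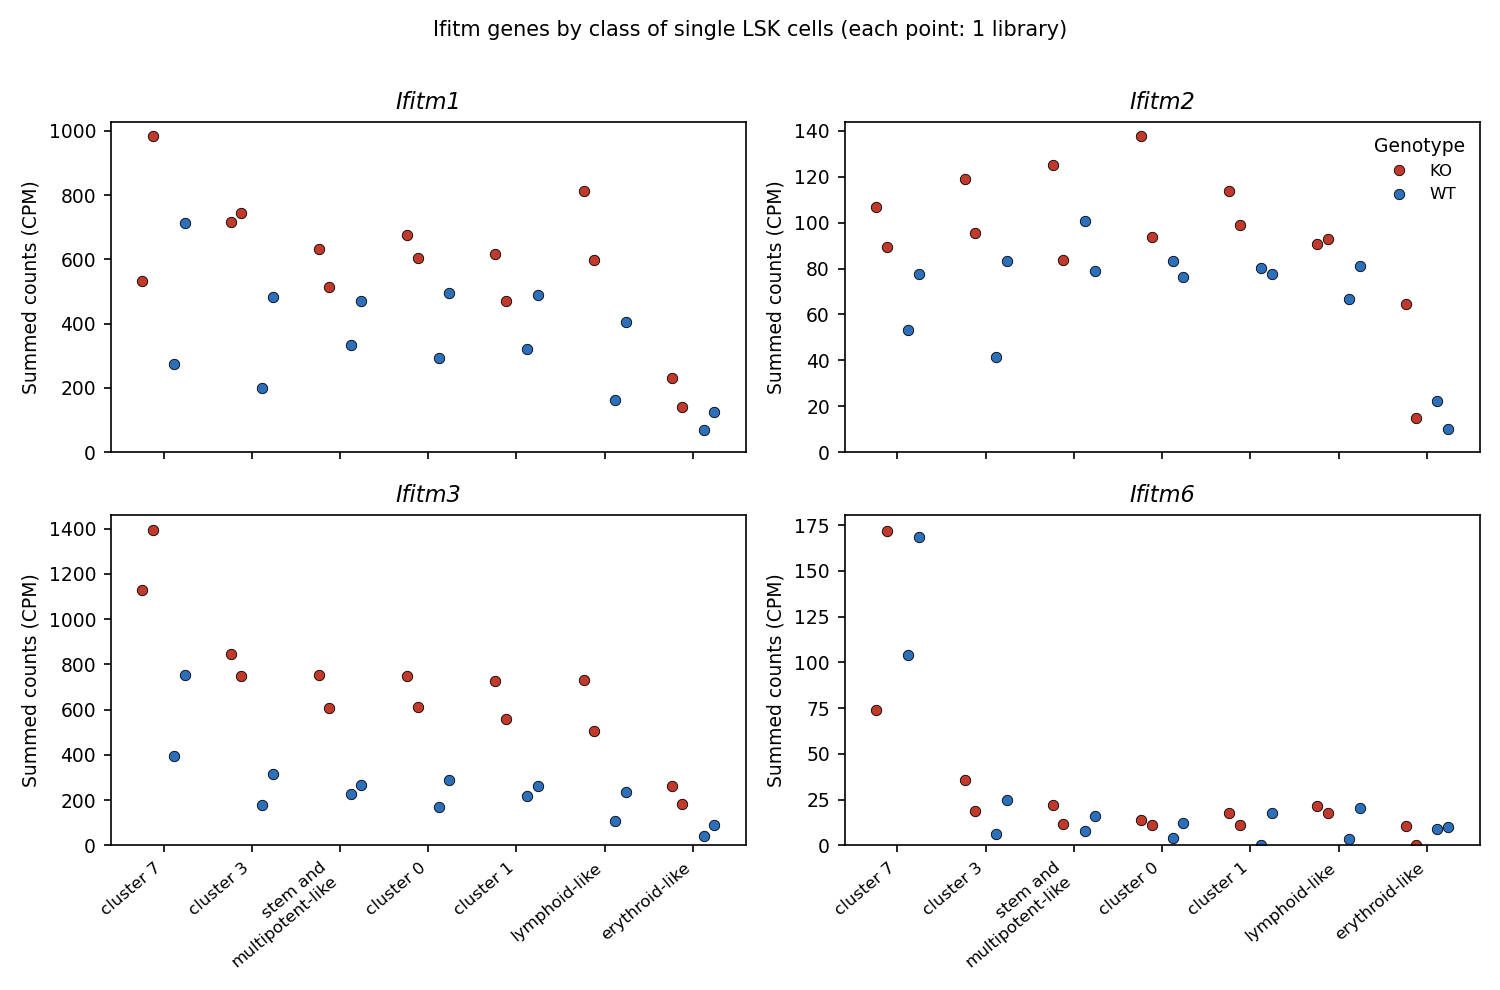
Level of each member (CPM of summed counts) in the 7 single-cell classes, with points for the 2 KO and 2 WT libraries of a class. Ifitm3 lies higher in KO in every class, Ifitm6 is highest in cluster 7 and overlaps between genotypes throughout.

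The other members differed less clearly between genotypes within the classes. Ifitm1 was above WT in both KO libraries in 5 of 7 classes and Ifitm2 in 5 of 7, while Ifitm6 overlapped between genotypes in all 7. How often other genes stand in such an order was not counted, and the classes share the same libraries. Ifitm2 was called in none of the classes (lowest adjusted p = 0.158, erythroid-like, edgeR), and Ifitm1 in erythroid-like cells only. In erythroid-like cells Ifitm1 had 231 and 141 CPM in KO and 69.0 and 126 CPM in WT (log2 1.06, SE 0.27, adjusted p = 0.048, edgeR), a call lost without KO 1 (0.605) or without WT 1 (0.406). Ifitm1 and Ifitm2 were both lowest in erythroid-like cells in each genotype, where Ifitm2 had 64.6 and 14.9 CPM in KO and 22.4 and 10.2 CPM in WT. Elsewhere Ifitm2 spanned 83.8 to 138 CPM in KO and 41.4 to 101 CPM in WT.

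Ifitm6 had its highest level in cluster 7, with 74.2 and 172 CPM in KO and 104 and 168 CPM in WT (log2 -0.29, SE 0.37, adjusted p = 0.786, edgeR). That cluster held 5.08% and 2.75% of KO cells and 7.69% and 9.37% of WT cells, yet it gave 17.8% and 28.6% of all Ifitm6 counts in KO and 22.4% and 53.4% in WT. Larger shares of the Ifitm6 counts lay elsewhere in some libraries. In KO 1 cluster 3 gave 32.2% of them and held 28.7% of the cells. In KO 2 stem and multipotent-like cells gave 37.9% and made up 36.7% of the cells. In WT 1 a further 66.2% of the Ifitm6 counts lay in cluster 4, which held 41.6% of that library's cells. Neutrophil genes of the marker list summed to 1285 and 54.7 CPM in KO and 737 and 59.9 CPM in WT over all cells, high in library 1 of each genotype, and their part in the Ifitm6 values was not tested.

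The Ifitm3 difference also appeared as a share of cells. With each cell thinned to 1000 counts, 46.6% and 42.5% of KO cells and 18.1% and 23.4% of WT cells had an Ifitm3 count; without thinning the shares were 61.3% and 64.2% in KO and 34.6% and 37.2% in WT. Cells under 1000 counts left out by the thinning numbered 847 and 685 in KO and 268 and 752 in WT. Erythroid-like cells, the class with the least Ifitm3, had thinned shares of 23.6% and 15.6% in KO and 5.18% and 6.86% in WT, at median counts of 2290.5 and 3137 in KO and 3931 and 1881 in WT, and no class known to lack the gene was available to measure free RNA. In cluster 7 the thinned shares were 54.0% and 63.7% in KO and 24.9% and 43.6% in WT. For Ifitm1 they were 40.8% and 38.0% of all KO cells and 21.6% and 33.9% of all WT cells, and for Ifitm2 11.02% and 8.13% in KO and 7.80% and 8.02% in WT.

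Ifitm6 was counted in 2.26% and 1.34% of KO cells and 2.19% and 2.36% of WT cells after thinning. In cluster 7 that share was 6.81% and 12.7% in KO and 8.995% and 10.8% in WT, while in erythroid-like cells it was 0.567% and 0% in KO and 0.797% and 0.980% in WT. The 0% stands for 0 of 64 cells, with an exact upper 95% bound of 5.60%.

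Across clusters the members followed each other unequally. Over 9 clusters with at least 50 WT cells, the correlation of log2 levels between Ifitm1 and Ifitm3 was 0.873 in KO and 0.943 in WT cells, between Ifitm1 and Ifitm2 it was 0.938 in KO and 0.924 in WT, and between Ifitm2 and Ifitm3 0.828 in KO and 0.813 in WT. Ifitm6 followed Ifitm3 at 0.777 in KO and 0.695 in WT, Ifitm1 at 0.478 in KO and 0.438 in WT, and Ifitm2 at 0.355 in KO and 0.262 in WT. Among 2890 genes compared, those nearest to each member were picked by their correlation over the 9 WT points, so their WT values are high by that choice. The nearest to Ifitm3 were Syngr2 (0.818 in KO, 0.993 in WT), Myl12b (0.790 in KO, 0.980 in WT) and Alox5ap (0.886 in KO, 0.974 in WT), the last of which activates leukotriene synthesis. The nearest to Ifitm1 were Itm2b (0.631 in KO, 0.976 in WT), Lst1 (0.918 in KO, 0.973 in WT) and the proteasome activator subunit Psme1 (0.688 in KO, 0.972 in WT). Ifitm2 was nearest to Rcn2 (0.738 in KO, 0.984 in WT), Fxyd5 (0.839 in KO, 0.983 in WT) and B2m (0.859 in KO, 0.979 in WT), the light chain of MHC class I. Ifitm6 was nearest to Sat1 (0.866 in KO, 0.976 in WT) and the lysosomal proteases Ctsz (0.929 in KO, 0.974 in WT) and Ctsc (0.957 in KO, 0.952 in WT). The clusters share libraries and depth, so these are descriptions over 9 points.

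**Figure D5:**
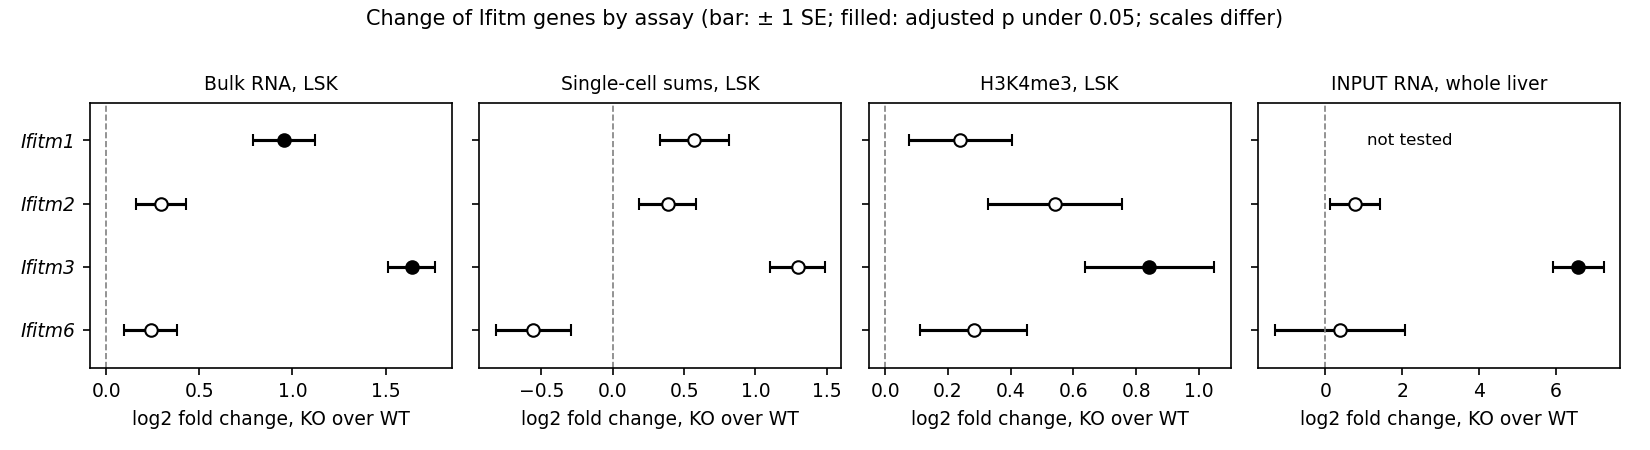
Log2 fold change of each member, KO over WT, with bars of 1 SE, in bulk LSK RNA, H3K4me3, whole liver INPUT RNA and single-cell sums, where filled points passed an adjusted p of 0.05. Ifitm3 lies highest of the members in every assay, from 0.84 in H3K4me3 to 6.59 in INPUT RNA, and Ifitm6 is the member on both sides of 0.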

How the data were processed

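The authors deposited raw counts: bulk, INPUT and J2 reads for each gene, H3K4me3 reads for each 3 kb start window, and single-cell counts. Per the submitters' processing notes, the build was GRCm38.p5 and the tools were Seurat 3.0, Picard 2.9.0, edgeR, Bowtie2 2.2.9, STAR 2.5.3a and bedtools; the counting tool, strand use and treatment of molecular identifiers are not given in the sources used here. Members and lists were chosen with earlier results of these data known. Groups follow the labels, which call the samples biological replicates.

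From the deposited counts, edgeR 4.0.16 (R 4.3.3; filterByExpr, TMM, quasi-likelihood F test, Benjamini-Hochberg over all genes) gave each comparison, and SE is the log2 fold change over the root of F. INPUT and J2 libraries shared 1 fit. Of several start windows the one with the highest mean was used. Single cells were clustered with scanpy 1.11.5 (2000 variable genes, 30 components, 15 neighbours, Leiden resolution 1, 5661 bulk-called genes left out), then summed by library and class. No doublet caller was run. Only the edgeR fits of whole assays, without J2 over INPUT in WT, were run on simulated counts. These had the same dispersion for all genes, so they do not cover the wider spread of some genes here. Beside the members, the text names the 4 largest changes of each list, up to 3 of opposite sign, the 3 most alike genes and called neighbours. Bulk samples of the same replicate number had correlations of deviations of 0.340, 0.119 and 0.121. KO 2 went more with WT 3 (0.276) than with WT 2 (0.119), so the bulk numbers need not pair the samples. Libraries of 1 liver pair J2 with INPUT. Alternatives were DESeq2 1.42.0, library size alone, no filter, the replicate block, other windows, INPUT alone, resolution 0.5 and each library left out. Intervals and floors (3 counts) cover counting error only.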

Additional observations from a re-analysis of the deposited data

Results flagged for a closer look

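Ifitm6 stood in opposite order in the 2 RNA assays of LSK cells. Its log2 fold change was 0.24 in bulk RNA, where all 3 KO libraries were above all 3 WT libraries, and -0.56 in the single-cell sums, where both KO libraries were below both WT libraries. The difference between the assays was not tested, and neither value passed its own test. Without the cells of clusters 3, 4 and 7 the single-cell value was 0.29 (SE 0.42). No group here has 4 or more libraries, so single libraries were not screened for standing apart.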

How the results depend on the processing

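Ifitm3 and Ifitm1 in bulk RNA kept their calls under all 11 alternatives (1.55 to 1.81 and 0.79 to 1.15 on the log2 scale), and Ifitm3 in INPUT RNA under all 14. Of 4 members, the number called in H3K4me3 was 1, and 2 with library size alone, with the replicate block and with all distinct windows, and 0 to 2 with a library left out. The number called in J2 over INPUT was 2 in KO (1 to 2 with a library left out) and 1 in WT (0 with library size alone, 0 to 1 with a library left out), and in single-cell sums 0, but 1 by DESeq2 and 1 with the replicate block (Ifitm3, adjusted p = 0.0498). At Leiden resolution 0.5 Ifitm3 was called in 3 of 5 classes. Signs turned for Ifitm1 in H3K4me3 on windows of at least 4 log2 CPM (-0.057), for Ifitm6 in single-cell sums without clusters 3, 4 and 7 (0.29), and with a library left out for Ifitm6 in INPUT (-6.93 to 7.36), J2 over INPUT in KO (-0.0004 to 8.33), in WT (-2.75 to 5.23), their difference (-4.18 to 10.1) and cluster 7 (-0.96 to 0.25), and for the J2 difference of Ifitm3 (-3.48 to 1.55) and Ifitm2 (-2.24 to 0.10); the cause was not tested. Pairing by number was not stated for H3K4me3, INPUT or single cells (2 pairs each, correlations 0.396, -0.011 and 0.366); beyond Ifitm2 in bulk and H3K4me3 (for the mark, adjusted p = 3.26e-06) and Ifitm3 in single-cell sums, the block changed no member's call. All-gene calls moved by over 1.5 times in H3K4me3 (4024; DESeq2 788, block 20842, marked windows 659, all windows 12979, without KO 1 1291, without KO 2 2135, without WT 2 1080), INPUT (173; DESeq2 819, library size 329, no filter 798, block 18, INPUT alone 25, a library left out 29 to 451), J2 over INPUT in KO (4462; 2744 and 2750 without J2 KO 1 or 2) and WT (3503; 2297 and 1855 without J2 WT 1 or 2), their difference (0; DESeq2 68, library size 3, no filter 103, block 10, a library left out up to 9) and single-cell sums (1; DESeq2 827, no filter 11, block 117, a library left out 0). INPUT and J2 depth leaves Ifitm1 and WT Ifitm3 at a few counts, where only large differences are detectable. Ifitm6 differed more within groups (INPUT 38 and 0 counts in KO, 0 and 18 in WT).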
